A study of Homo sapiens with 12 samples.

Results

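Mitosis and G2/M genes were followed as a set of 54 genes in HEK293T cells after knockdown of the noncoding RNA snaR-A. The genes were chosen by name, as mitotic cyclins, kinases, and spindle, kinetochore and anaphase-promoting complex (APC/C) genes, and not by a threshold on their measured values. All 54 listed symbols matched a row each of the gene table, out of 63541 gene identifiers, and all 54 were abundant enough to pass the filter on low counts. They fall by role into 7 cyclins, CDK1 and its switches, 7 mitotic kinases and passenger complex genes, 5 spindle checkpoint genes, 7 kinetochore and centromere genes, 7 genes of the APC/C, its substrates and chromatid separation, 8 kinesins, 6 spindle assembly genes, 4 midzone and cytokinesis genes, and 3 genes of transcription and chromosome structure.

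snaR-A is a small RNA made by RNA polymerase III that binds the NF90 protein, and the study asked what its loss does to mRNAs. HEK293T, a human embryonic kidney line that carries the SV40 large T antigen, was transfected at 12.5 nM for 48 hours with a control siRNA (scramble) or with 1 of 3 siRNAs against snaR-A (si-snaR-A#1 to si-snaR-A#3, written #1, #2 and #3 from here on), with 3 libraries in each of the 4 groups. The transfection reagent in all groups was Lipofectamine RNAi Max, no further allele or agent is given, and all 12 libraries came from the same established line. rRNA-depleted, poly(A)+ RNA was sequenced, and a library held 120.4 to 180.1 M estimated counts. The study describes biological replicates handled on the same day, and p-values here measure only the spread between these libraries. 0 gene identifiers had a symbol beginning with SNAR, so the level of snaR-A itself was not analysed here and gives no check of the labels.

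The labels call the cells epithelial and of kidney origin. Of 5 epithelial markers 4 reached a mean of at least 1 CPM (counts per M counts, scaled by the TMM method), led by KRT18 at 27.9 to 34.9 CPM, whereas KRT19 did not exceed 0.022 CPM. The kidney lineage genes SIX2 and WT1 were at 19.2 to 29.4 and 6.50 to 11.6 CPM and PAX8 was at or below 0.099 CPM. Of the genes of mature tubule and glomerulus UMOD was at 0 in all libraries and LRP2 (megalin), an uptake receptor of the proximal tubule, was at 20.4 to 46.6 CPM. Their summed level was 27.6 to 32.4 CPM in scramble, 40.2 to 48.1 with #1, 21.5 to 26.1 with #2 and 27.5 to 34.1 with #3, so that the #1 libraries lay above all others. The 5 kidney lineage genes also summed highest with #1, at 41.3 to 46.0 CPM against 34.5 to 35.9 in scramble. The neurofilament genes NEFL and NEFM, known from HEK293 lines, were at 137.4 to 233.1 and 244.4 to 462.4 CPM. Summed over the 3 neuronal genes the level was 414.9 to 442.0 CPM in scramble, 411.8 to 453.3 with #1, 670.9 to 691.9 with #2 and 513.6 to 524.1 with #3, and the part of such differences in the results below was not tested. The 5 fibroblast markers summed to 31.6 to 33.9 CPM in scramble, 31.1 to 32.8 with #1, 26.7 to 32.5 with #2 and 23.5 to 25.7 with #3, led by COL1A1 at a mean of 20.4 CPM over the 12 libraries. The 3 endothelial markers summed to at most 0.79 CPM and the 5 blood markers to at most 1.68 CPM in any library.

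Entry into mitosis is switched on when cyclin B accumulates and binds CDK1, and CDC25 phosphatases overcome the inhibitory kinase WEE1. The Polo and Aurora kinases build the spindle. Kinetochores attach chromosomes to spindle microtubules, and the spindle checkpoint holds the APC/C inactive until all are attached. The APC/C then marks securin and cyclin B for destruction, separase cuts cohesin, and the midzone and contractile ring divide the cell. Most of these genes are transcribed in G2, under the MuvB complex with B-MYB and FOXM1, which reads the CHR element, and under NF-Y, which reads CCAAT boxes. A bulk library averages cells in all phases, so fewer cells in G2 and mitosis and less RNA in each such cell cannot be told apart.

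Promoter windows show letters of control elements shared by many of these genes. RefSeq promoter windows (GRCh38.p14, 250 bases before to 50 after the gene start) were at hand for 45 of the 54 members. BIRC5, WEE1, UBE2C, RACGAP1, TTK, FOXM1, TPX2, BUB3 and AURKA had no window. The letters of the CHR element were searched as TTTGAA or TTCGAA and the CCAAT box as CCAAT, both on either strand, so that TTCAAA and ATTGG also count. CHR letters stood in a window of 34 of the 45 members (75.6%), against 19.5% of 27305 genes with a window, and CCAAT letters in 37 members (82.2%), against 39.7% of those genes. Both stood in the windows of 29 members (64.4%) and of 7.85% of all these genes, and in 2 member windows a CHR and a CCAAT match overlapped. A match is a description of the letters and not a shown binding site, and the RefSeq start can differ from the GENCODE gene start. The 120 bases just before the start are given here for 8 members whose values carry the results below, 5′ to 3′ on the gene's strand, with every CHR and CCAAT match in capitals. The first 4 (CCNB2, HMMR, KIF11 and NEK2) fell with #1 and the last 4 (PLK1, CDC20, ESPL1 and UBE2S) rose with it.
CCNB2, chr15:59105026-59105145, plus strand: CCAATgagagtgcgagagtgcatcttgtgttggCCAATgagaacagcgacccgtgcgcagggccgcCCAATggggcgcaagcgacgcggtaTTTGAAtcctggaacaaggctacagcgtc
HMMR, chr5:163460512-163460631, plus strand: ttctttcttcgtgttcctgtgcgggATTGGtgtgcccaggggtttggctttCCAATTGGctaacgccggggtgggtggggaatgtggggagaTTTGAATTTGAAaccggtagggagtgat
KIF11, chr10:92593010-92593129, plus strand: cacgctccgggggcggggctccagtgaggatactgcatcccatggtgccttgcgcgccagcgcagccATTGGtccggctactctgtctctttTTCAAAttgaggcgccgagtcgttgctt
NEK2, chr1:211675622-211675741, minus strand: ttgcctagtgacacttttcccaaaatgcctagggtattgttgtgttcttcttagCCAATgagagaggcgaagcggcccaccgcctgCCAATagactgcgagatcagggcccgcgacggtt
PLK1, chr16:23678769-23678888, plus strand: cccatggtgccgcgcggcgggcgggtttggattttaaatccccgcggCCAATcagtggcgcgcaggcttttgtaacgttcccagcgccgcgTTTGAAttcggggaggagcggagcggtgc
CDC20, chr1:43358861-43358980, plus strand: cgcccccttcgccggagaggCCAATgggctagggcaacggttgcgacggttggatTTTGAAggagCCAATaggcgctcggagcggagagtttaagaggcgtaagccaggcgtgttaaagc
ESPL1, chr12:53268179-53268298, plus strand: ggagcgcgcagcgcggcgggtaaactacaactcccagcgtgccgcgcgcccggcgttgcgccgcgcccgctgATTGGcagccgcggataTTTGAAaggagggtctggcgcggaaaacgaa
UBE2S, chr19:55407789-55407908, minus strand: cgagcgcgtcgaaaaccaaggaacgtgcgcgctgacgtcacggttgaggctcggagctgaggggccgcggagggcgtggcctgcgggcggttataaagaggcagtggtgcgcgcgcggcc
CCNB2 shows 3 CCAAT matches and 1 CHR match that begins 29 bases before the start, and PLK1 has its CHR match at the same distance. HMMR carries 2 CHR matches, 28 and 22 bases before the start, and KIF11 carries 1 at 28 bases, read on the other strand. In CDC20 the CHR match begins 65 and in ESPL1 31 bases before the start. NEK2 has 2 CCAAT matches and no CHR match in these bases, and UBE2S has neither. Members with CHR letters therefore stand on both sides of the response to #1, as counted near the end of this section.

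Levels differed widely between the members before any comparison. Per kilobase of the canonical transcript, the scramble mean was highest for TOP2A, the topoisomerase that untangles sister chromatids, at 168.1 CPM per kb. PTTG1 (securin) followed at 160.0 CPM per kb, CDK1 at 123.6, UBE2C at 103.0 and NUSAP1 at 102.2. The median member was at 40.7 CPM per kb, and the lowest were SPC25, an Ndc80 complex subunit, at 8.01 and FZR1, the CDH1 activator of the APC/C, at 4.91 CPM per kb. Even SPC25 had at least 977 counts in every library. Together the members took 0.802% to 0.809% of all counts in the scramble libraries, 0.828% to 0.829% with #1, 0.799% to 0.811% with #2 and 0.829% to 0.868% with #3. Exons of 20 members overlap another gene, 34 have none, and GENCODE names 27 pseudogenes after 16 of the members, of which the highest (AURKAP1) reached 64 counts in any library. The overlap is with a gene on the same strand for WEE1, BUB1B, CENPA, NUSAP1 and PRC1, whose counts are less certain.

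The mix of these genes that changed differed most between #1 and the other siRNAs, and most changes were small. With #1, 16 of 54 members rose and 19 fell at an edgeR quasi-likelihood adjusted p under 0.05, where 21.9% and 23.3% of the 21999 genes tested rose and fell. With #2, 17 rose and 7 fell, against 13.7% and 12.1% of all genes. With #3, 27 rose and 4 fell, against 16.5% and 13.0%. Averaged over the siRNAs, 15 rose and 9 fell, against 15.6% and 16.6%. Rises with both #2 and #3 were called for 15 members and falls with both for 2, counts not given for other genes. All 3 comparisons share the scramble libraries, so their counts are given side by side only.

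Because the members are abundant, the 10309 genes at or above the lowest member's mean level are the closer background. Of these, 29.9% rose and 33.3% fell with #1, close to the members' 29.6% and 35.2%. With #2 26.4% rose and 13.7% fell, where the members stood at 31.5% and 13.0%. With #3 31.8% rose and 14.7% fell, while 27 of the 54 members rose and 7.41% fell. In the mean of the siRNAs 28.2% rose and 20.7% fell, where the members stood at 27.8% and 16.7%. The median log2 fold change of the members was -0.03 with #1, 0.06 with #2 and 0.13 with #3, beside -0.01, 0.04 and 0.06 for genes at or above the lowest member's level and -0.02, -0.03 and -0.03 for all genes tested. The members' share of rises thus stood apart from that background most with #3, and with #1 it was near it. Upper quartile scaling gave 11 higher and 9 lower members with #2 in place of 17 and 7. With #3 it ended the higher calls of BUB1B, BUB3, CDCA8, CKAP2, NDC80 and PTTG1. Under that scaling 2885 of all genes tested rose with #3 and 3874 fell, in place of 3619 and 2855. The 17 rises with #2 became 10 without scramble replicate 1, 11 without #2 replicate 1 and 9 without #2 replicate 3. The 4 falls with #3 became 2, and the 9 in the mean became 4, without scramble replicate 2.

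**Figure D1:**
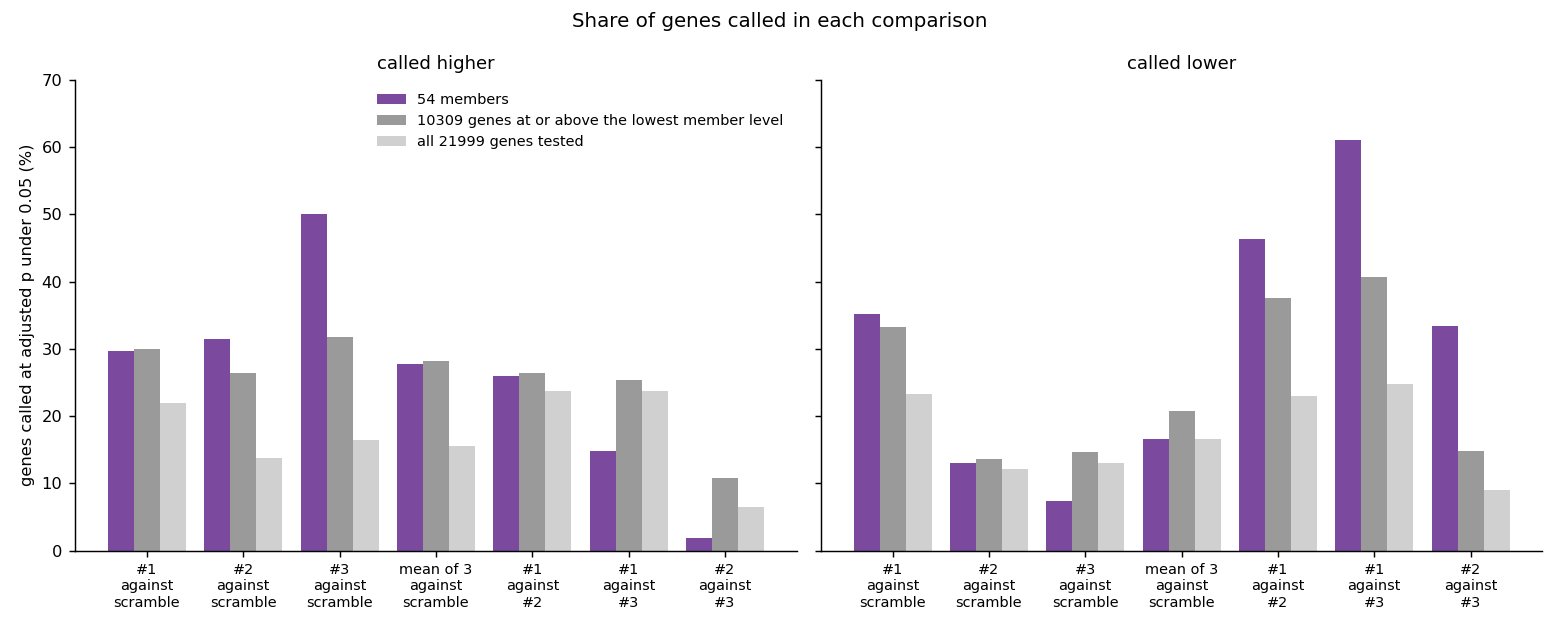
Percent of genes called higher (left) or lower (right) at adjusted p under 0.05 in each of the 7 comparisons, for the 54 members, for the 10309 genes at or above the lowest member's level and for all 21999 genes tested. The members' bar is tallest for #1 lower than #3 (61.1%), and among rises against scramble for #3.

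The siRNAs also differed from each other, most often with #1 at the lower level. Against #2, #1 had 14 members higher and 25 lower, where 23.7% and 23.0% of all genes and 26.4% and 37.6% of genes at or above the lowest member's level were. Against #3, it had 8 higher and 33 lower, where 23.8% and 24.8% of all genes and 25.4% and 40.6% of genes at or above the lowest member's level were. With the GC content trend described below removed these splits became 19 higher and 18 lower, and 12 higher and 23 lower. In that setting 5168 of the 21999 genes tested were higher with #1 than with #2 and 4648 lower. Against #3 they were 5369 and 4949. #2 had 1 member higher than #3 (INCENP) and 18 lower, where 6.52% and 9.03% of all genes and 10.9% and 14.8% of genes at that level were. The 18 became 7 to 16 when any 1 of the 12 libraries was left out, with 7 without #2 replicate 2 or #3 replicate 1. It was 10 without scramble replicate 3, #1 replicate 2 or #2 replicate 1, 9 without #2 replicate 3, 8 without #3 replicate 2 and 11 without #3 replicate 3. In either direction 39, 41 and 19 members differed in the 3 comparisons, where 46.7%, 48.6% and 15.6% of all genes and 64.0%, 66.0% and 25.6% of genes at that level did. In all, 23 members were lower with #1 than with both other siRNAs, 7 were higher than with both, and 5 differed from neither. Of all genes 19.0% were lower and 17.6% higher with #1 than with both, and of genes at that level 32.5% and 19.5%.

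No member changed over 2-fold against scramble with any siRNA. The range was -0.95 (NEK2) to 0.53 (CENPF) on the log2 scale with #1, -0.37 (PLK1) to 0.31 (CENPF) with #2 and -0.31 (INCENP) to 0.54 (UBE2S) with #3. In 36 of the 54 members no siRNA gave a change of 1.25-fold or more. Of the members, 7 were called with no siRNA, 16 with 1, 19 with 2 and 12 with all 3. Neither these counts nor that of 1.25-fold changes are given for other genes. With #1, #2 and #3 in turn, 64.8%, 44.4% and 57.4% of the members were called. Of genes at or above the lowest member's level 63.2%, 40.1% and 46.4% were. The median standard error of these log2 fold changes was 0.04.

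**Figure D2:**
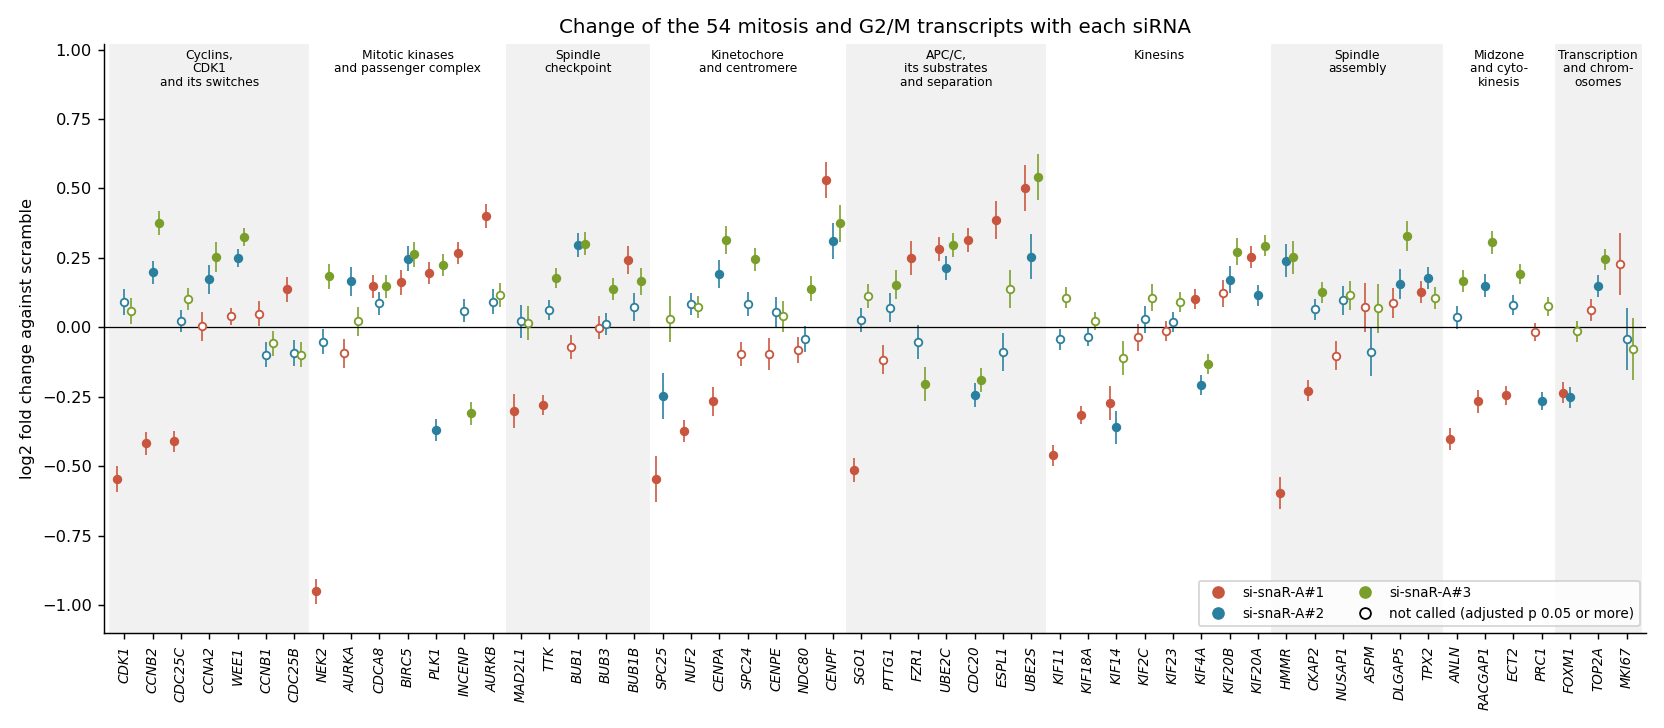
Log2 fold change against scramble (points, with the standard error as bars) of all 54 members, ordered by role and, within a role, by the value with #1; filled points passed an adjusted p under 0.05. The points run from -0.95 (NEK2, #1) to 0.54 (UBE2S, #3), and the red #1 points spread furthest to both sides.

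The genes of the G2 to mitosis switch moved unevenly. CDK1, the kinase that drives mitotic entry, was at 222.1, 241.3 and 237.0 CPM in the scramble libraries, 164.0, 165.3 and 150.5 with #1, 246.4, 253.5 and 246.8 with #2 and 234.1, 246.3 and 249.8 with #3. All 3 #1 libraries lay below every other library. Its log2 fold change was -0.55 ± 0.05 (SE, n = 3 and 3, edgeR adjusted p = 9.9e-07) with #1, and it was 0.09 and 0.06 with the other siRNAs (edgeR adjusted p = 0.17 and 0.37). CCNB2 (cyclin B2) was at 68.2, 72.4 and 71.5 CPM in scramble, 54.3, 54.7 and 49.8 with #1, 81.8, 79.3 and 82.3 with #2 and 89.7, 92.6 and 93.0 with #3. The 4 groups did not overlap at all, in the order #1, scramble, #2, #3. CCNB2 fell by 0.42 ± 0.04 with #1 (edgeR adjusted p = 4.3e-06) and rose by 0.20 ± 0.04 and 0.38 ± 0.04 with #2 and #3 (0.0037 and 2.8e-05).

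CCNB1 (cyclin B1), the main CDK1 partner, was at 180.2, 192.0 and 188.0 CPM in scramble, 202.1, 196.9 and 181.0 with #1, 178.8, 169.2 and 175.6 with #2 and 178.9, 177.7 and 181.7 with #3. It passed the test with no siRNA, at log2 fold changes of 0.05, -0.10 and -0.06 (edgeR adjusted p = 0.39, 0.13 and 0.37). WEE1, the kinase that holds CDK1 inactive, was at 108.3, 109.6 and 108.9 CPM in scramble, 113.4, 113.3 and 109.1 with #1, 128.8, 128.6 and 131.2 with #2 and 135.2, 135.8 and 138.4 with #3. The #2 and #3 libraries stood above all scramble libraries, at 0.25 ± 0.03 and 0.33 ± 0.03 (edgeR adjusted p = 7.5e-05 and 7.6e-06), while the #1 libraries overlapped scramble. Cyclin A2 (CCNA2) gave 0.00, 0.17 and 0.25 and was called higher with #2 and #3. The phosphatase gene CDC25C was called lower with #1 (-0.41, against 0.02 and 0.10), while its relative CDC25B was called higher (0.14, against -0.09 and -0.10). In all, 1 of the 7 rose and 3 fell with #1, and 3 rose with each of the other siRNAs. The #2 call of CCNA2 was lost without scramble replicate 1 or any 1 #2 library, and the CDC25B call without scramble replicate 1 or 2 or #1 replicate 1 or 2.

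The mitotic kinases and the chromosomal passenger complex held the widest range. NEK2, a centrosomal kinase that helps the centrosomes part (ENSG00000117650, chr1:211658657-211675630, GRCh38), was at 60.0, 65.0 and 62.9 CPM in scramble, 33.4, 33.6 and 30.3 with #1, 59.7, 60.8 and 60.8 with #2 and 69.7, 72.0 and 71.6 with #3. The #1 libraries were far below the rest, those of #3 were above all others, and those of #2 overlapped scramble. Its log2 fold change was -0.95 ± 0.05 with #1 (edgeR adjusted p = 8.3e-09), -0.05 ± 0.04 with #2 (0.46) and 0.18 ± 0.04 with #3 (0.0074). Between #1 and #3 the difference was -1.13 ± 0.05 (1.4e-09), the only one over 2-fold among the 54 members in the 7 comparisons.

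PLK1, the Polo kinase of mitotic entry and spindle assembly, was at 109.7, 116.3 and 116.0 CPM in scramble, 136.0, 131.5 and 124.1 with #1, 86.9, 88.8 and 89.4 with #2 and 133.0, 132.4 and 134.2 with #3. The #2 libraries alone lay below scramble. The log2 fold changes were 0.20 ± 0.04, -0.37 ± 0.04 and 0.22 ± 0.04 (edgeR adjusted p = 0.0013, 2.5e-05 and 0.00091), and PLK1 was the 1 member called in opposite directions with #2 and #3. INCENP, the scaffold of the passenger complex, was at 76.7, 72.7 and 77.6 CPM in scramble, 94.4, 89.8 and 89.1 with #1, 77.0, 82.6 and 76.9 with #2 and 61.7, 61.7 and 59.9 with #3. It stood above scramble with #1 and below it with #3, at 0.27 ± 0.04 and -0.31 ± 0.04 (edgeR adjusted p = 0.00015 and 0.00012).

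BIRC5 (survivin), which takes the passenger complex to the centromere, was at 148.5, 152.7 and 160.1 CPM in scramble, 179.4, 175.5 and 161.1 with #1, 180.5, 180.5 and 186.6 with #2 and 183.1, 181.6 and 188.6 with #3. All 9 siRNA libraries were above the scramble libraries and it rose with each siRNA (log2 fold changes 0.16, 0.25 and 0.26, edgeR adjusted p = 0.0099, 0.0013 and 0.00073). AURKB, the kinase of that complex, was at 73.3, 67.7 and 73.8 CPM in scramble, 95.5, 92.7 and 95.3 with #1, 76.1, 77.1 and 76.0 with #2 and 74.4, 76.7 and 81.9 with #3. It rose with #1, by 0.40 ± 0.04 (edgeR adjusted p = 8.1e-06), and gave 0.09 and 0.12 with the others (0.14 and 0.060). AURKA, the spindle pole kinase, was at 155.2, 169.8 and 170.2 CPM in scramble, 163.7, 158.2 and 142.4 with #1, 183.6, 187.8 and 184.3 with #2 and 166.4, 164.2 and 172.0 with #3. It was called higher with #2 (0.17, edgeR adjusted p = 0.033), but leaving out scramble replicate 1 or any 1 #2 library ended that call, with adjusted p up to 0.14. CDCA8 (borealin) was called higher with #1 and #3 (0.15 each), the first lost without scramble or #1 replicate 1 and the second without scramble replicate 1 or #3 replicate 2 or 3. Of the 7 genes, 5 rose and 1 fell with #1, 2 rose and 1 fell with #2, and 4 rose and 1 fell with #3.

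**Figure D3:**
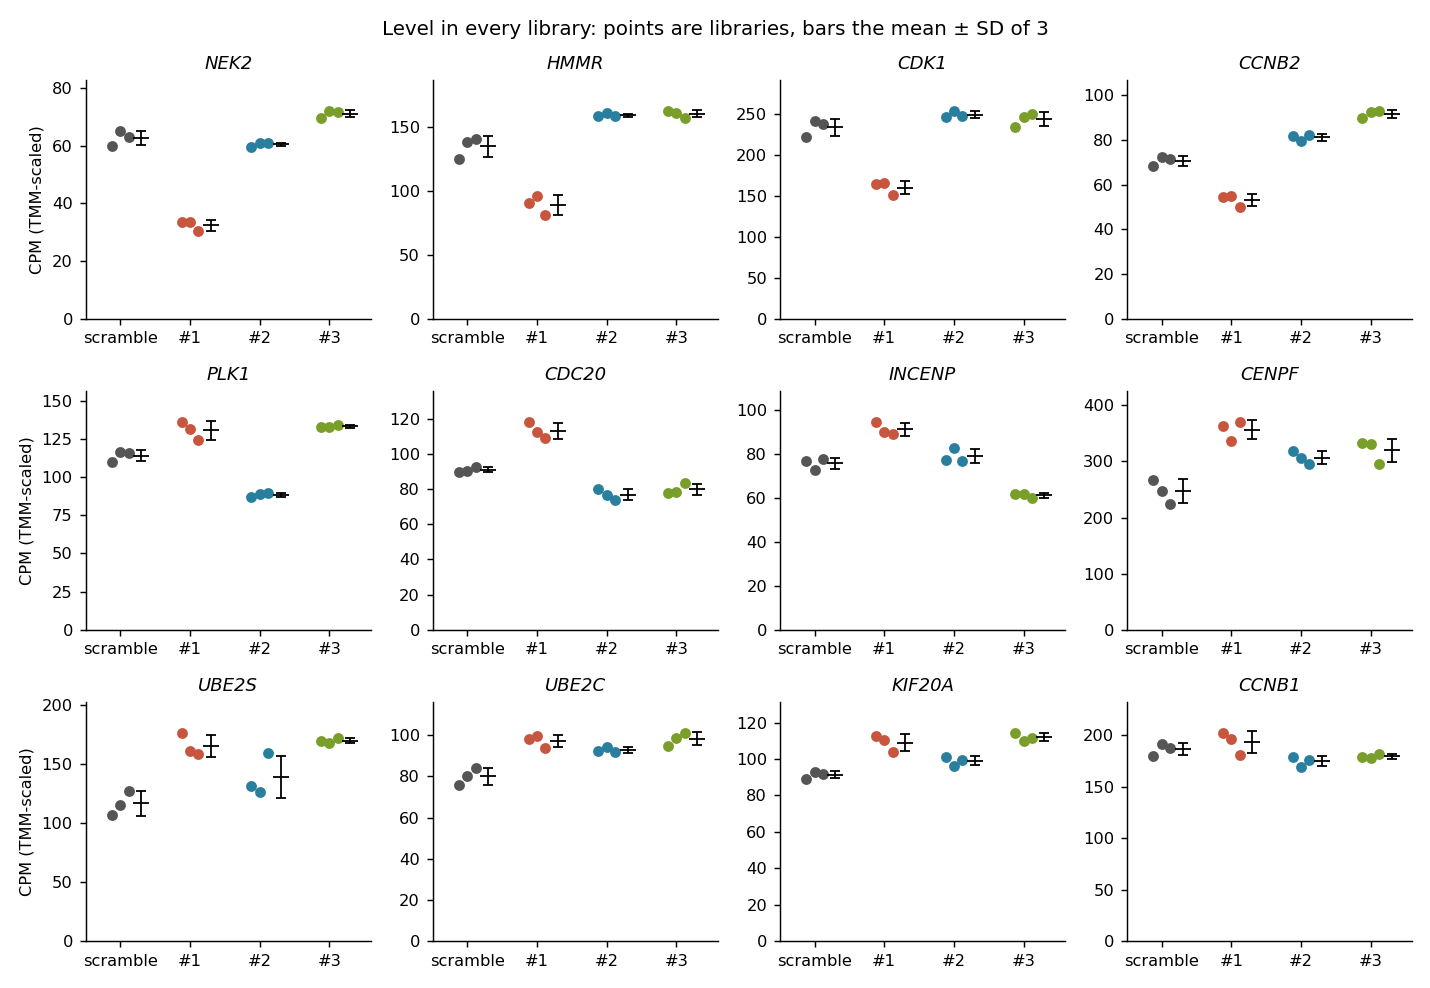
CPM (vertical axis, from 0) of 12 of the members given in full, by group (horizontal), with a point for each library and bars for the mean ± SD of 3 libraries. The #1 libraries of NEK2 lie at 30.3 to 33.6 CPM, below all others, and for CENPF all 9 siRNA libraries lie above scramble.

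Among spindle checkpoint genes BUB1, the kinase that recruits the checkpoint to kinetochores, was at 220.2, 227.9 and 230.5 CPM in scramble, 221.3, 224.2 and 200.3 with #1, 276.8, 275.1 and 282.3 with #2 and 277.0, 280.7 and 278.7 with #3. The last 6 libraries lay above all others, and BUB1 rose by 0.30 ± 0.04 with each of those siRNAs (edgeR adjusted p = 0.00025 and 0.00019), against -0.07 with #1 (0.20). MAD2L1 (MAD2), which inhibits the APC/C through CDC20, was at 206.1, 225.0 and 219.2 CPM in scramble, 183.2, 184.3 and 160.9 with #1, 217.4, 232.8 and 209.9 with #2 and 207.2, 222.4 and 227.7 with #3. It was lower with #1, by -0.30 ± 0.06 (edgeR adjusted p = 0.0013), a call that was lost, at -0.12, once the GC content trend was removed. TTK (MPS1), the kinase at the head of the checkpoint, was called lower with #1 (-0.28) and higher with #3 (0.18), and its #1 value became -0.05 without the GC trend. BUB1B (BUBR1) was called higher with #1 and #3 (0.24 and 0.17) and BUB3 with #3 (0.14). The #3 call of BUB1B was lost without scramble replicate 3 or #3 replicate 1, and that of BUB3 without scramble replicate 1 or #3 replicate 3. Exons of BUB1B overlap PAK6, so its counts are less certain. Of the 5 genes, 1 rose and 2 fell with #1, 1 rose with #2 and 4 rose with #3.

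At the kinetochore CENPF, a large protein of the outer kinetochore that marks G2 cells (ENSG00000117724, chr1:214603185-214664574), was at 267.6, 247.9 and 224.9 CPM in scramble, 362.5, 337.0 and 370.2 with #1, 318.2, 305.3 and 295.0 with #2 and 332.1, 331.8 and 295.8 with #3. All 9 siRNA libraries stood above scramble. It rose by 0.53 ± 0.07, 0.31 ± 0.07 and 0.37 ± 0.07 (edgeR adjusted p = 2.7e-05, 0.0039 and 0.00096). CENPA, the centromeric histone, was called lower with #1 (-0.27) and higher with #2 and #3 (0.19 and 0.31). The call of CENPA with #2 was lost without scramble replicate 1 or #2 replicate 2 or 3, and its exons overlap SLC35F6.

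Genes of the Ndc80 complex, which holds the microtubule end, passed the test in different comparisons. NUF2 was called lower with #1 (-0.37), SPC25 with #1 and #2 (-0.54 and -0.25), whereas NDC80 and SPC24 passed with #3 alone (0.14 and 0.25). NDC80 and SPC24 were also negative with #1, at -0.12 to -0.04 and -0.12 to -0.06 when any 1 library was left out. With #3 the lowest of the 7 kinetochore and centromere values was 0.03. Differences between the subunits were not tested. The #2 call of SPC25 was lost without scramble replicate 2 or 3, #1 replicate 3, #2 replicate 2 or 3, or any 1 #3 library, with adjusted p up to 0.18. The NDC80 call was lost without scramble replicate 2 or 3, #2 replicate 1 or 2, or any 1 #3 library. CENPE, a kinetochore kinesin, passed with no siRNA (-0.10, 0.05 and 0.04). Of the 7 genes, 1 rose and 3 fell with #1, 2 rose and 1 fell with #2, and 4 rose with #3.

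Both ubiquitin enzymes of mitotic exit in the set rose. UBE2C, which starts ubiquitin chains on APC/C substrates, was at 75.7, 80.4 and 84.0 CPM in scramble, 98.2, 99.9 and 94.0 with #1, 92.1, 94.3 and 91.9 with #2 and 94.9, 98.9 and 101.1 with #3. It rose by 0.28, 0.21 and 0.30, each ± 0.04 (edgeR adjusted p = 0.00015, 0.0028 and 0.00023), with no overlap between scramble and any siRNA. UBE2S, which extends the chains (ENSG00000108106, chr19:55399745-55407788), was at 106.9, 115.2 and 127.5 CPM in scramble, 176.1, 161.0 and 158.2 with #1, 131.5, 126.6 and 159.1 with #2 and 169.4, 167.4 and 171.6 with #3. The #2 libraries overlapped scramble and the others did not. UBE2S rose by 0.50 ± 0.08 and 0.54 ± 0.08 with #1 and #3 (edgeR adjusted p = 0.00026 and 0.00031) and by 0.25 ± 0.08 with #2 (0.037). That last call was lost without scramble replicate 1 or 2, #2 replicate 3 or #3 replicate 2, with adjusted p up to 0.16.

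The APC/C activator CDC20 was at 89.6, 90.5 and 92.6 CPM in scramble, 118.0, 112.3 and 109.1 with #1, 80.2, 76.3 and 73.9 with #2 and 77.9, 78.1 and 83.3 with #3. It stood above scramble with #1 and below it with the others, at 0.32, -0.24 and -0.19, each ± 0.04 (edgeR adjusted p = 5.9e-05, 0.0012 and 0.0055). FZR1, the activator used after anaphase, was called higher with #1 and lower with #3 (0.25 and -0.20), the first lost without the GC trend (0.09) and the second without any 1 scramble library or #3 replicate 1 or 2. ESPL1 (separase), the protease that cuts cohesin, was at 72.7, 71.9 and 65.4 CPM in scramble, 90.7, 87.0 and 97.0 with #1, 70.1, 65.0 and 62.5 with #2 and 84.7, 75.5 and 70.8 with #3. The #1 libraries lay above all others, at 0.39 ± 0.07 (edgeR adjusted p = 0.00052), against -0.09 and 0.14 with the others. SGO1 (shugoshin), which protects centromeric cohesin, was called lower with #1 (-0.51, against 0.03 and 0.11). PTTG1 (securin), the inhibitor of separase, passed with #3 (0.15), a call lost without scramble replicate 1 or 2, #2 replicate 1 or #3 replicate 2 or 3. Of the 7 genes, 5 rose and 1 fell with #1, 2 rose and 1 fell with #2, and 3 rose and 2 fell with #3.

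The kinesins, motors of the spindle and midzone, went separate ways. KIF11 (Eg5), which pushes the spindle poles apart, was at 209.8, 221.8 and 208.6 CPM in scramble, 158.7, 157.0 and 149.8 with #1, 208.8, 202.2 and 210.3 with #2 and 232.6, 230.8 and 225.5 with #3. It was low in the #1 libraries alone, at -0.46 ± 0.04 (edgeR adjusted p = 7.5e-07), against -0.04 and 0.11 (0.46 and 0.052). KIF14, a cytokinesis kinesin, was at 98.2, 96.9 and 89.2 CPM in scramble, 78.2, 76.5 and 80.7 with #1, 74.3, 73.7 and 73.5 with #2 and 95.6, 88.8 and 79.0 with #3. It fell with #2 (-0.36 ± 0.06, edgeR adjusted p = 0.00071) and was called lower with #1 (-0.27, 0.0023), though not without the GC trend (-0.09).

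KIF20A (MKLP2), which carries the passenger complex to the midzone, was at 89.1, 93.1 and 91.9 CPM in scramble, 112.8, 110.3 and 103.7 with #1, 101.3, 96.4 and 99.3 with #2 and 114.3, 110.2 and 111.7 with #3. All 9 siRNA libraries were above scramble, at 0.25, 0.12 and 0.29 (edgeR adjusted p = 0.00015, 0.046 and 0.00011), and its exons overlap BRD8 and CDC23 on the other strand. The #2 call was lost when any 1 of the scramble, #2 or #3 libraries was left out, with adjusted p up to 0.16. KIF18A, which damps chromosome movement, was called lower with #1 (-0.31). KIF4A, a chromosome-bound motor, was called higher with #1 and lower with the others (0.10, -0.21 and -0.13). Its #1 call was lost without any 1 scramble library, #1 replicate 1 or 2 or #3 replicate 2, and its #3 call without scramble replicate 2. KIF20B was called higher with #2 and #3 (0.17 and 0.27), the first lost without scramble replicate 3 or #2 replicate 3, and KIF23 and KIF2C passed with none. Of the 8 genes, 2 rose and 3 fell with #1, 2 rose and 2 fell with #2, and 2 rose and 1 fell with #3.

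Of the spindle assembly genes HMMR, a microtubule-bound partner of the TPX2 pathway, was at 125.2, 138.5 and 140.3 CPM in scramble, 90.5, 95.8 and 80.8 with #1, 158.3, 160.6 and 158.4 with #2 and 162.5, 161.1 and 157.2 with #3. The #1 libraries lay below scramble and the other siRNA libraries above it. HMMR fell by 0.60 ± 0.06 with #1 (edgeR adjusted p = 3.2e-06) and rose by 0.24 and 0.25 with the others (0.0084 and 0.0056). DLGAP5 (HURP), which stabilises kinetochore fibres, was at 162.5, 172.8 and 168.4 CPM in scramble, 187.5, 185.1 and 162.5 with #1, 189.1, 178.9 and 193.6 with #2 and 215.7, 206.3 and 210.6 with #3. It rose with #3 (0.33, edgeR adjusted p = 0.00053), and its call with #2 (0.16, 0.047) was lost without any 1 scramble or #3 library or #2 replicate 1 or 3. TPX2, which activates AURKA, was called higher with #1 and #2 (0.13 and 0.18), the first lost without scramble replicate 1 or #1 replicate 1 or 2. CKAP2 was called lower with #1 and higher with #3 (-0.23 and 0.13), the second lost without scramble replicate 1 or 3 or #3 replicate 1 or 2, while ASPM and NUSAP1 passed with none. The #1 value of CKAP2 became -0.01 once a trend with GC content was removed from every library. Of the 6 genes, 1 rose and 2 fell with #1, and 3 rose with each of the others.

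Of the 4 midzone and cytokinesis genes PRC1, which bundles midzone microtubules, was at 219.6, 216.2 and 224.0 CPM in scramble, 219.8, 213.8 and 218.7 with #1, 183.0, 179.8 and 186.2 with #2 and 226.0, 232.7 and 236.6 with #3. It was low in the #2 libraries alone, and fell by 0.27 ± 0.03 there (edgeR adjusted p = 8.6e-05), against -0.02 and 0.08 (0.73 and 0.11). The other 3, ANLN (anillin), ECT2 and RACGAP1, which build and trigger the contractile ring, were called lower with #1 (-0.40, -0.24 and -0.27) and higher with #3 (0.17, 0.19 and 0.31). RACGAP1 was at 149.6, 152.3 and 152.2 CPM in scramble, 128.2, 131.8 and 117.6 with #1, 170.9, 163.1 and 169.9 with #2 and 187.9, 187.6 and 186.0 with #3. Its groups did not overlap, and its call with #2 (0.15) was lost without scramble replicate 1 or #2 replicate 1 or 3. The #1 value of ECT2 became -0.02 without the GC trend.

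The remaining 3 genes are the transcription factor FOXM1, the proliferation marker MKI67 (Ki-67) and TOP2A. FOXM1 was at 138.9, 142.9 and 144.6 CPM in scramble, 124.5, 123.8 and 114.1 with #1, 120.9, 119.0 and 118.2 with #2 and 140.7, 140.4 and 141.5 with #3. It fell by 0.23 and 0.25 with #1 and #2 (edgeR adjusted p = 0.00023 and 0.00034) and gave -0.01 with #3 (0.83). MKI67 was at 409.5, 378.7 and 343.8 CPM in scramble, 434.0, 416.2 and 476.4 with #1, 382.8, 362.5 and 354.4 with #2 and 424.5, 360.7 and 287.3 with #3. Its libraries spread widely within the scramble and #3 groups, those of #1 lay above scramble, and no call was made at 0.23 ± 0.11, -0.04 ± 0.11 and -0.08 ± 0.11 (edgeR adjusted p = 0.12, 0.83 and 0.65). TOP2A was at 956.6, 958.1 and 956.9 CPM in scramble, 1003, 1030 and 964.9 with #1, 1071, 1058 and 1055 with #2 and 1149, 1167 and 1086 with #3. It rose with #3 (0.24, edgeR adjusted p = 0.00049), and its call with #2 (0.15, 0.014) was lost without #2 replicate 1.

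Members called in 1 direction with all 3 siRNAs were compared with those called in opposite directions. The paper places the targets of all 3 in the 3′-proximal sequence of snaR-A. The comparisons also share the scramble libraries, so calls shared by siRNAs are not independent. CENPF, UBE2C, UBE2S, KIF20A and BIRC5 were called higher with each, 5 of 54 (9.26%) where 5.16% of all genes tested and 10.4% of genes at or above the lowest member's level were. None was called lower with each at an edgeR adjusted p under 0.05, where 2.84% of all genes and 3.63% of those at that level were, and the count was also 0 at an unadjusted p under 0.05, with DESeq2 and with edgeR's exact test. Without #3 replicate 1 it was 1 (KIF14). CENPF, UBE2C and BIRC5 kept all 3 calls in 22 of 22 alternative analyses, UBE2S in 16 and KIF20A in 10. The count of 5 became 3 without scramble replicate 1 or 2, #2 replicate 3 or #3 replicate 2. Leaving out each library in turn gave 3 to 7, and some other settings gave more, as listed under the processing below. In turn, 14 members were called in opposite directions with at least 1 pair of siRNAs (25.9%), where 8.41% of all genes and 14.3% of genes at or above the lowest member's level were. Of these, 9 were lower with #1 and higher with #3 (CCNB2, NEK2, TTK, CENPA, HMMR, CKAP2, ECT2, ANLN and RACGAP1), and 4 the reverse (INCENP, CDC20, FZR1 and KIF4A). Of all genes 4.0% were lower with #1 and higher with #3 and 2.16% the reverse, and at the members' level 8.05% and 2.66%. With the GC content trend described below removed, the #1 calls of TTK, ECT2, CKAP2 and FZR1 were lost. The count of opposite calls in that setting is not given here.

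Transcript base composition moved with the response to #1. GC content of the canonical transcript ran from 34.3% (KIF20B) to 63.8% (FZR1), with a median of 42.6%. Across the 54 members its Spearman correlation with the log2 fold change was 0.58 for #1, -0.09 for #2 and -0.06 for #3, beside 0.24, -0.14 and -0.11 over 20691 genes and 0.34, -0.13 and -0.14 over the 9966 of them at or above the lowest member's level. These are across genes that share the same libraries, and genes are not independent replicates. Of 19 members under 40% GC, 13 fell with #1, with a median of -0.28, and of the 1957 genes at the members' level in that range 1056 fell, with a median of -0.17. Of 21 members at 40% to 50%, 5 rose and 5 fell, and of 14 at or above 50%, 11 rose and 1 fell, with a median of 0.22. Among genes at the members' level 24.6% rose and 37.8% fell in the middle range, and 42.5% rose and 19.4% fell in the upper one, with a median of 0.10.

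**Figure D4:**
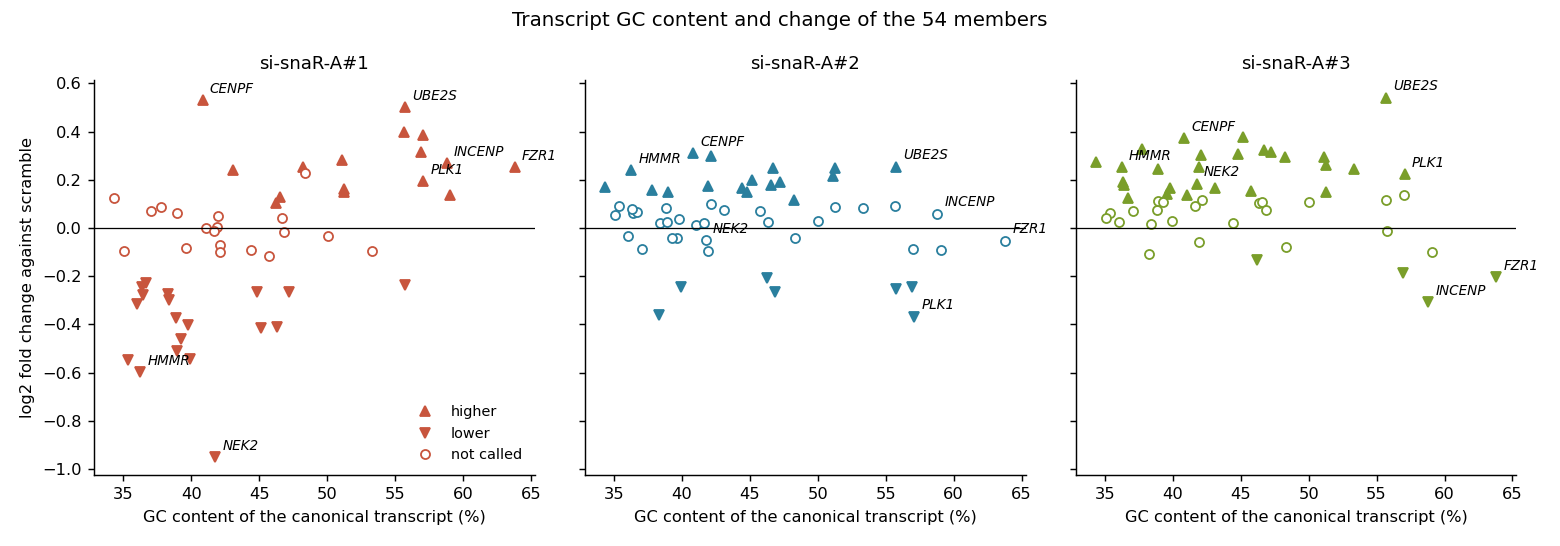
Log2 fold change against scramble (vertical) by GC content of the canonical transcript in percent (horizontal) for the 54 members, 1 panel per siRNA, with triangles for genes called higher or lower and open circles for the others. Points climb from left to right with #1 (Spearman 0.58) and not with #2 (-0.09) or #3 (-0.06).

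A spline of GC content fitted to all genes and removed from every library left part of this. The correlation over members with #1 became 0.23, and 22 members were called higher and 15 lower in place of 16 and 19. Of the 21999 genes tested 5127 were higher and 4781 lower in that setting, in place of 4814 and 5127. Of the 19 lower calls 14 were kept, among them NEK2 (-0.84), HMMR (-0.37), CCNB2 (-0.36), KIF11 (-0.30) and CDK1 (-0.30), and 5 were lost (MAD2L1, TTK, ECT2, CKAP2 and KIF14). Of the 16 higher calls 14 were kept, CDC25B and FZR1 were lost, and 8 members were newly called higher. The median member moved from -0.03 to 0.05. The cause of this relation was not tested.

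**Figure D5:**
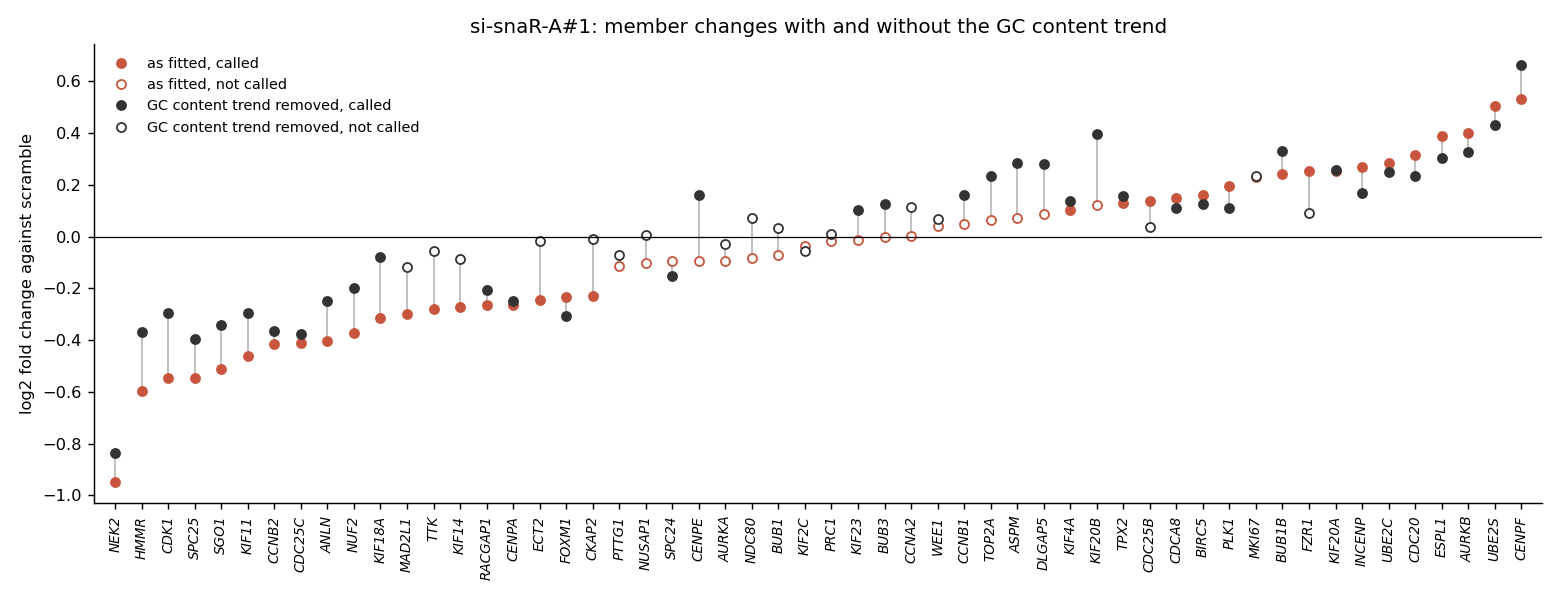
Log2 fold change with #1 for the 54 members before and after the GC content trend was removed, joined by a line for each gene and ordered by the value before. NEK2 stays lowest, moving from -0.95 to -0.84, and the median moves from -0.03 to 0.05.

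Responses were also counted by the promoter letters. Among the 34 members with CHR letters 10 rose and 14 fell with #1, 8 rose and 6 fell with #2, and 14 rose and 4 fell with #3, with medians of -0.04, 0.02 and 0.11. Among the 11 with a window but no such letters 3 rose and 2 fell, 3 rose, and 7 rose in turn, with medians of -0.03, 0.07 and 0.15. Of all genes at or above the lowest member's level 29.9% rose and 33.3% fell with #1, 26.4% and 13.7% with #2, and 31.8% and 14.7% with #3. Calls of other genes with CHR letters are not given. With 11 genes on 1 side the member values are counts only, and no difference was tested.

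Other genes of mitosis, in 8 further lists with 106 of 107 symbols tested, are given for comparison. With #1 25 rose and 44 fell, with #2 29 rose and 9 fell, and with #3 42 rose and 6 fell. Of all genes tested 21.9% rose and 23.3% fell with #1, 13.7% and 12.1% with #2, and 16.5% and 13.0% with #3. Of genes at or above the lowest member's level 29.9% rose and 33.3% fell with #1, 26.4% and 13.7% with #2, and 31.8% and 14.7% with #3. With #1 9 of 14 outer kinetochore, 9 of 17 inner kinetochore and 7 of 11 cohesin genes fell, counts that were not tested against that background. CDCA5 (sororin), which stabilises cohesin on sister chromatids, was at 83.6 ± 4.1 CPM (SD, n = 3) in scramble and 42.4 ± 0.99 with #1, at -0.98 ± 0.04 (edgeR adjusted p = 3.1e-09), and CENPK of the inner kinetochore gave -0.73 ± 0.04 (1.4e-08) with #1. The values of CDCA5 and CENPK with #2 and #3 are not given here. ZW10, a checkpoint protein of the outer kinetochore, rose from 29.7 ± 0.18 CPM to 54.7 ± 3.2, 57.4 ± 1.2 and 61.9 ± 1.2, at 0.88, 0.95 and 1.06 (edgeR adjusted p = 9.5e-09, 2.5e-08 and 9.3e-09). Of 8 condensin genes 6 rose with #3, and the condensin subunit NCAPD2 rose with each siRNA (0.46, 0.28 and 0.28).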

How the data were processed

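RNA-seq of HEK293T cells was analysed in 12 libraries, 3 for scramble and 3 for each of the siRNAs #1, #2 and #3, grouped by the deposited labels. The authors trimmed reads (Trim Galore) and deposited a gene table of estimated counts (Salmon, hg38), which need not be whole. The library kit was stranded, and whether counting used strand is not given in the sources used here. The counts were rounded, and 0 columns of other samples were left out. GENCODE 44 (GRCh38) matched 58160 of 63541 gene identifiers.

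edgeR 4.0.16 (R 4.3.3) filtered low counts (filterByExpr), scaled by TMM and fitted a quasi-likelihood model to all 12 libraries, with 7 comparisons. P-values were adjusted by Benjamini-Hochberg over 21999 genes, and genes were called at an adjusted p under 0.05. CPM is TMM-scaled. The fits were tested on simulated data. Alternatives included DESeq2 1.42.0, the replicate number as a block and leaving out each library. GC content and length splines (5 df) were added after seeing the data. Tables used Python 3.11.15, pandas 2.3.3 and numpy 2.4.6.

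The members and lists were chosen with earlier results of these data known. The 24 members given with every library were those called in 1 direction with all 3 siRNAs, the 3 called members with the largest change in a comparison, the most changed called member of a role in the mean, and the fixed genes CCNB1, CDK1, CDC20, PLK1, AURKA, AURKB, BUB1, MAD2L1, FOXM1, MKI67, TOP2A and WEE1. At most 2 genes of a further list were named, those called in the mean with the largest change. KIF11, ESPL1 and RACGAP1 were given in full, and the 8 promoters shown were picked, after their values were seen. KIF15 was not analysed here. The depth gave every member at least 977 counts in each library. A marker gene of the kidney list is not reported here.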

Additional observations from a re-analysis of the deposited data

Results flagged for a closer look

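Differences between the siRNAs were tested directly in the edgeR quasi-likelihood fit, and the members that differed are given here with their values. 39 members differed between #1 and #2, 41 between #1 and #3 and 19 between #2 and #3, which are 72.2%, 75.9% and 35.2% of the members. Of all genes tested 46.7%, 48.6% and 15.6% differed, and of the 10309 genes at or above the lowest member's level 64.0%, 66.0% and 25.6%. Members called in opposite directions against scramble, and different from each other by the test, were as follows on the log2 scale. For #1 minus #2 the differences were -0.62 for CCNB2, 0.56 for PLK1, -0.46 for CENPA, 0.56 for CDC20, 0.31 for KIF4A, -0.84 for HMMR and -0.42 for RACGAP1. For #1 minus #3 the lower genes were NEK2 (-1.13), HMMR (-0.85), CCNB2 (-0.79), CENPA (-0.58), RACGAP1 (-0.57), ANLN (-0.57), TTK (-0.46), ECT2 (-0.44) and CKAP2 (-0.35). In the same comparison INCENP (0.58), CDC20 (0.50), FZR1 (0.45) and KIF4A (0.24) were higher. The #1 calls of TTK, ECT2, CKAP2 and FZR1 against scramble were lost with the GC content trend removed. For #2 minus #3, PLK1 gave -0.59. The calls of an siRNA against scramble that rest on single libraries are named with each gene in the results. Some calls between siRNAs were also lost when a single library was left out. Among them were ANLN, DLGAP5, ECT2 and TTK for #2 against #3, PRC1, KIF14 and MKI67 for #1 against #3, and CCNB1 for #1 against #2. The cause of the differences was not tested.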

How the results depend on the processing

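Counts of members called higher and lower moved by different amounts under the alternatives. When 1 library was left out, lower calls with #1 stayed at 19 to 20. Higher calls with #2 ran from 9 to 20, and lower calls of #2 against #3 from 7 to 16, below the 18 reported. With the replicate block the higher and lower counts were 16 and 19 for #1, 14 and 6 for #2, 26 and 4 for #3, 15 and 8 for the mean, 15 and 25 for #1 against #2, 9 and 34 for #1 against #3 and 1 and 13 for #2 against #3. The replicate numbers did not pair the libraries (correlations of same-numbered libraries -0.24 to 0.17, 5 of 18 over 0.1). Higher calls with #2 became 11 under upper quartile scaling, and lower calls 11 with the GC content and length trend removed. With #3 upper quartile scaling ended the higher calls of BUB1B, BUB3, CDCA8, CKAP2, NDC80 and PTTG1. Higher calls of #2 against #3, 1 as reported, were 2 under upper quartile scaling, the exact test, DESeq2 or the compared groups alone and 3 with a minimum of 1 CPM or either trend removed, and lower calls were 11 with no filter. Members higher with all 3 siRNAs were 3 under upper quartile scaling, 8 with a minimum of 1 CPM, DESeq2 or the GC trend removed and 12 with GC and length removed, and lower ones 1 with both removed. The share of other genes higher with all 3 in these settings is not given. With both removed 5320, 3391 and 3891 of the 21999 genes tested rose with #1, #2 and #3, in place of 4814, 3018 and 3619.

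The median with #1 turned to 0.051 (GC) and 0.049 (GC and length) with a trend removed. With #2 it was 0.086 (RLE, DESeq2), 0.018 (upper quartile), 0.033 (GC) and 0.034 (both trends), with #3 0.15 (RLE, DESeq2), 0.079 (upper quartile), 0.10 (minimum of 1 CPM, GC trend) and 0.11 (both trends), and for the mean -0.0055 (upper quartile). Signs that turned with the GC trend, then with GC and length, removed were, for #1 against scramble, BUB3 (0.13, first alone), CENPE (0.16, 0.095), KIF23 (0.10, 0.12), and NDC80 (0.13) and CKAP2 (0.015) in the second alone. For #1 against #2 they were DLGAP5 (0.18, 0.20), FOXM1 (-0.094, -0.099), TOP2A (0.13, 0.11) and CKAP2 (0.00074, second alone), and for #1 against #3 KIF14 (0.086, 0.054), DLGAP5 (0.014, 0.036) and TOP2A (0.050, 0.039).

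Leaving out each library gave 12 to 17 higher and 19 to 20 lower with #1, 9 to 20 and 6 to 7 with #2, 23 to 34 and 2 to 4 with #3, 13 to 16 and 4 to 9 for the mean, 10 to 15 and 23 to 26 for #1 against #2, 7 to 9 and 29 to 34 for #1 against #3, and 1 to 2 and 7 to 16 for #2 against #3. Medians ran from -0.05 to -0.01, 0.055 to 0.082, 0.12 to 0.15 and, for the mean, 0.02 to 0.03. Members higher with all 3 were 3 to 7 and lower 0 to 1. The cause was not tested. The lowest member count in any library was 977.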
